A study of Mus musculus with 18 samples.

Results

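Expression of 10 genes of the thioredoxin and glutathione redox systems was followed during LPS activation of mouse splenic B cells with and without *Zbtb24*. The genes were chosen by name and are 10 of the 16545 genes in the deposited table. They are *Txn1* and *Txnrd1* of the thioredoxin couple, the peroxiredoxins *Prdx1*, *Prdx2* and *Prdx4* with sulfiredoxin (*Srxn1*), the glutathione genes *Gclc*, *Gclm* and *Gsr*, and *Nfe2l2*, which encodes the transcription factor NRF2. The data are 18 RNA-seq libraries in 6 groups of 3. Total splenic B cells came from control mice (labelled CON and described as littermates with Cre and *Zbtb24*+/+) and from *Zbtb24* B-CKO mice (Cre with *Zbtb24* loxp/loxp, with exon 2 between the loxp sites), on a C57BL/6 background. Each genotype was sequenced at day 0, day 1 and day 2 of LPS, given here as 0 h, 24 h and 48 h. Cre is B cell-specific and present in both genotypes as described, and the ages and sexes of the mice used for RNA are not given in the sources used here. Each replicate of splenic B cells was 1 mouse per the methods, and no source used here says whether libraries with the same number at different times came from the same mouse. LPS, from the outer membrane of Gram-negative bacteria, drives B cells to grow and divide by way of TLR4. Cells at 0 h had not been cultured, whereas cells at 24 h and 48 h had been kept in a medium with 2-ME, which is read here as the thiol reductant 2-mercaptoethanol. LPS, culture and this reductant therefore cannot be told apart.

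Cells reduce oxidised proteins and peroxides through parallel thioredoxin and glutathione systems that both draw electrons from NADPH. Thioredoxin reductase (*Txnrd1*, a selenoprotein) reduces thioredoxin (*Txn1*), which in turn serves the peroxiredoxins, while glutathione is made by glutamate-cysteine ligase (*Gclc*, catalytic subunit, and *Gclm*, modifier subunit) and glutathione synthetase and is kept reduced by glutathione reductase (*Gsr*). NRF2 can induce many genes of both systems and is controlled largely through degradation of the protein, so that the *Nfe2l2* mRNA measured here is no measure of NRF2 protein. B cells are known for growth and division after activation and for disulfide bond formation in the endoplasmic reticulum as they turn into antibody-secreting cells.

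Because 8 of the 10 genes moved together at 24 h, the sequence around the start sites of the genes was searched for TGACNNNGC and TGANTCA. TGACNNNGC is the core of the antioxidant response element, to which NRF2 binds with small MAF proteins. TGANTCA is the core bound by AP-1 and related MAF dimers. The windows were RefSeq promoters on GRCm38.p6, from 250 bases before to 50 bases after each start, and both strands were searched. Windows were found for 8 of the 10 genes, 10 windows in all with 3 for *Txnrd1*, and *Gclc* and *Gsr* were not among them. TGACNNNGC was in windows of 5 genes (*Nfe2l2*, *Srxn1*, *Gclm*, *Prdx1* and *Txnrd1*, the last in 1 of its 3 windows). *Nfe2l2* was not among the 8 genes that moved at 24 h. Of all 32851 promoter windows of the same length, 12.4% held TGACNNNGC. The shares here are per window and not per gene. TGANTCA was in windows of 2 genes (*Srxn1* and *Prdx1*, with 2 matches each), against 7.81% of all windows, and 1.17% of all windows held both. The matches before the start are shown with 10 bases on each side, in the direction of the gene, with the match in capitals. In *Prdx1* the match of TGACNNNGC on the opposite strand overlaps a match of TGANTCA.
*Prdx1*, chr4:116685352-116685378, plus strand, TGANTCA: aacgaggaaaTGACTCAaagggcagtg
*Prdx1*, chr4:116685456-116685484, plus strand, both motifs: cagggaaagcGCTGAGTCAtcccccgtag
*Srxn1*, chr2:152105412-152105438, plus strand, TGANTCA: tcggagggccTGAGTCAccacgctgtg
*Srxn1*, chr2:152105469-152105495, plus strand, TGANTCA: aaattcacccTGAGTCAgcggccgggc
*Gclm*, chr3:122245413-122245441, plus strand, TGACNNNGC: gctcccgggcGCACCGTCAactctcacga
*Txnrd1*, chr10:82859104-82859132, plus strand, TGACNNNGC: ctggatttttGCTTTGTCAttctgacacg
*Nfe2l2*, chr2:75704885-75704913, minus strand, TGACNNNGC: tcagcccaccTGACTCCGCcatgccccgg
These matches are descriptions of letters and were not tested as binding sites.

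FPKM, fragment counts scaled by transcript length and by the library's mapped fragments, were given by the authors with 2 decimals. The table holds no counts. For 60 of 90 genes near 0, all values were whole multiples of a step (within 3% per step and rounding), and these steps gave a relative depth of 0.892 to 0.919 at 0 h and of 1.01 to 1.06 in culture (1 is the geometric mean of the 18 libraries). The targeted gene, *Zbtb24*, had a mean of 45.4 ± 7.24 FPKM in control cells at 0 h and of 12.5 ± 1.90 FPKM in B-CKO cells (both SD, n = 3). The means were 17.6 ± 1.66 and 10.9 ± 0.677 FPKM at 24 h and 15.2 ± 1.85 and 10.4 ± 1.07 FPKM at 48 h (SD, n = 3). Each B-CKO library lay below each control library at all 3 times, yet limma did not call *Zbtb24* at any of them (adjusted p = 0.120, 0.0586 and 0.267), so that the targeted gene itself missed the threshold used here. B cell markers, *Cd79a* highest among them, were present in all groups. The summed level of 8 T cell markers was at most 34.98 FPKM (mostly *Lck*), that of 9 myeloid markers at most 11.3 FPKM and that of 9 erythroid markers at most 71.6 FPKM, each at 0 h. The summed level of 16 immediate early genes was 4576 to 6509 FPKM at 0 h and 375 to 602 FPKM in culture. Libraries at 0 h differed more among themselves, with a median SD of 0.17 on the log2 scale in control cells against 0.056 at 24 h, and same-numbered libraries of the genotypes deviated together there. Differences below are on the log2(FPKM + 1) scale unless called ratios of mean FPKM, and a gene was called at a limma adjusted p under 0.05 over all genes tested.

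After 24 h of LPS, 8 of the 10 genes were higher in control cells and the same number in B-CKO cells, and none was called lower. *Gclc* and *Nfe2l2* were not called, and the call of *Srxn1*, near 0 FPKM throughout, was lost under several alternatives. By ratio of mean FPKM in control cells, the rise was largest for *Gsr* (8.85), *Txn1* (6.65) and *Prdx1* (6.35), followed by *Gclm* (4.45), *Txnrd1* (4.18), *Prdx4* (2.80) and *Prdx2* (2.37). Of all genes tested, 26.7% were called higher and 30.7% lower in control cells, and 27.5% and 32.3% in B-CKO cells. The median difference over the 10 genes was 1.69 in control and 1.72 in B-CKO cells, against -0.022 and -0.021 over all genes tested. Over the same step 5 of 7 B cell markers were called lower in control cells and 6 in B-CKO cells, none was called higher, and their summed level went from 3983 to 5430 FPKM at 0 h to 1987 to 2452 FPKM at 24 h over both genotypes. All 8 T cell markers tested were called lower in both genotypes, and the part of these shifts in the rise of the 10 genes was not tested. In these bulk samples, fewer cells of a type and less RNA per cell cannot be told apart, and FPKM do not show the amount of RNA per cell.

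**Figure D1:**
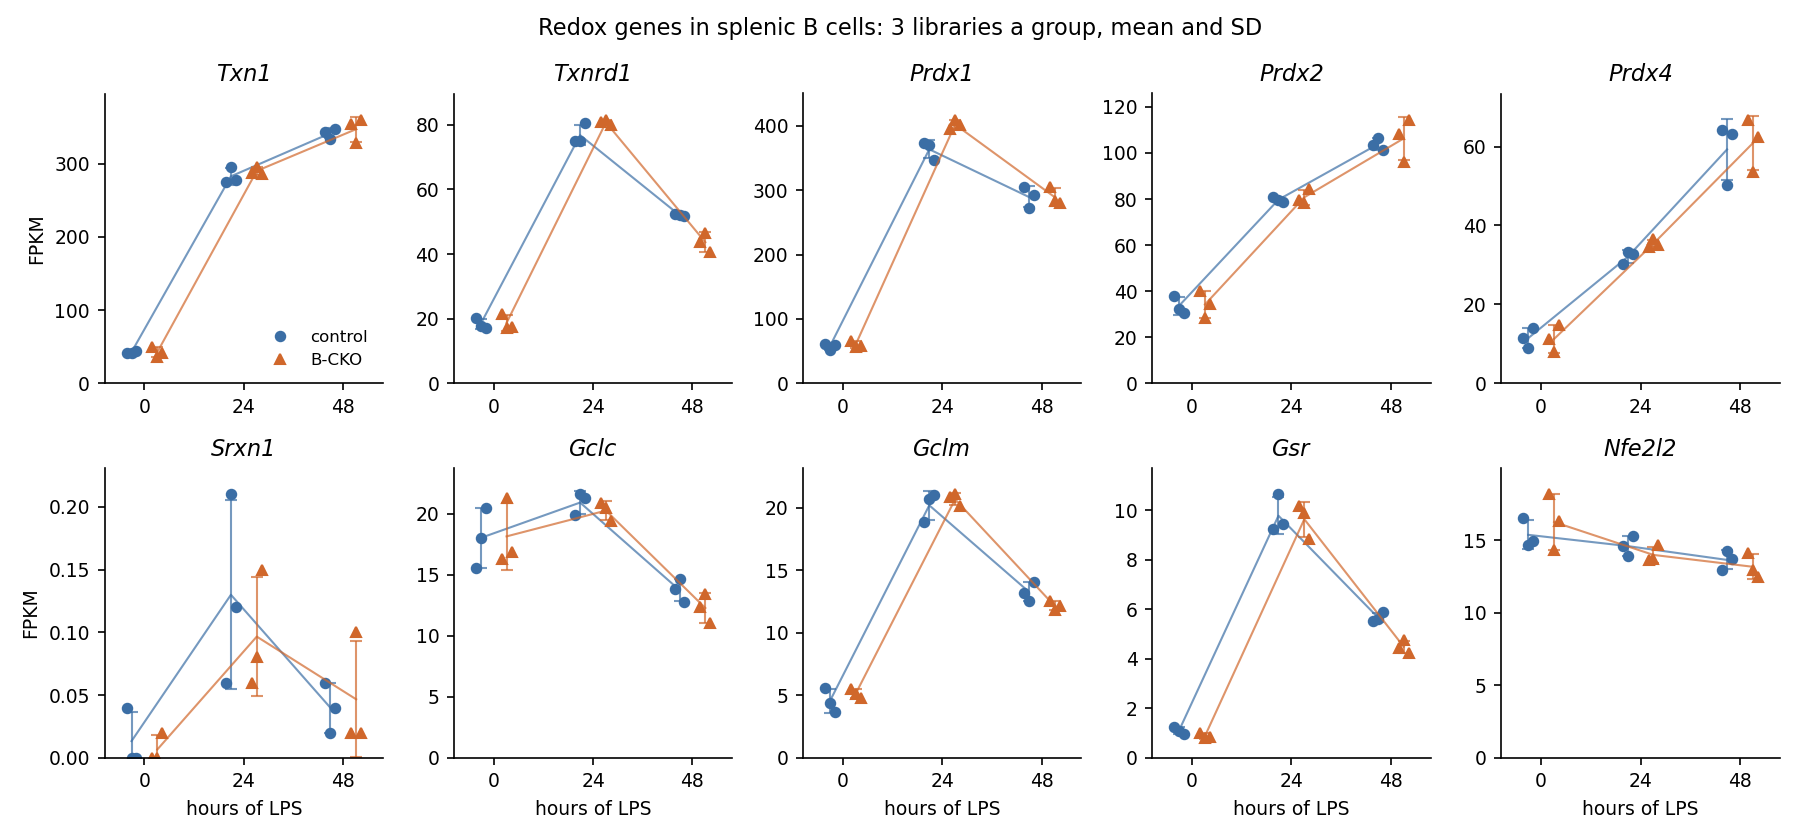
FPKM of the 10 genes against hours of LPS (x axis), 1 panel per gene with its own linear axis from 0. Points are single libraries (3 a group), lines join the group means and bars are the SD, cut off at 0. In *Txn1*, *Prdx2* and *Prdx4* the means rose at each step, while *Txnrd1*, *Prdx1*, *Gclm* and *Gsr* had their highest means at 24 h and *Nfe2l2* means stayed between 13.2 and 16.2 FPKM.

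*Txn1* (gene ID 22166, chromosome 4 of GRCm38.p6, 57943373 to 57956411), the cytosolic thioredoxin, was among the most abundant of the 10. In control libraries it was at 41.16, 41.85 and 44.43 FPKM at 0 h, at 274.64, 295.63 and 277.27 FPKM at 24 h, and at 342.76, 334.01 and 347.27 FPKM at 48 h. In B-CKO libraries it was at 49.80, 36.51 and 41.46 FPKM at 0 h, at 287.67, 295.74 and 286.34 FPKM at 24 h, and at 353.38, 327.78 and 359.64 FPKM at 48 h. The 3 times did not overlap in either genotype, and the genotypes overlapped at each time. The step to 24 h was 2.70 in control (SE 0.056, limma adjusted p = 4.97e-06) and 2.75 in B-CKO cells (SE 0.11, limma adjusted p = 5.71e-06). The further step to 48 h was 0.27 (SE 0.040, limma adjusted p = 0.00166) and 0.26 (SE 0.046, limma adjusted p = 0.00352). *Txn1* rose from rank 1818 to rank 246 of all genes by mean FPKM in control cells between 0 h and 24 h.

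*Txnrd1* (gene ID 50493, chromosome 10, 82833951 to 82897724), the reductase that recycles thioredoxin, rose and then fell again. In control libraries it was at 20.16, 17.69 and 17.24 FPKM at 0 h, at 74.93, 75 and 80.41 FPKM at 24 h, and at 52.39, 51.98 and 51.73 FPKM at 48 h. In B-CKO libraries the values were 21.43, 17.22 and 17.36 FPKM at 0 h, 80.73, 81.52 and 79.90 FPKM at 24 h, and 43.81, 46.59 and 40.53 FPKM at 48 h. At 48 h the 3 B-CKO libraries lay below the 3 control libraries, and at 0 h and 24 h the genotypes overlapped. The rise at 24 h was 2.01 in control (SE 0.075, limma adjusted p = 8.03e-06) and 2.06 in B-CKO cells (SE 0.090, limma adjusted p = 7.20e-06). From 24 h to 48 h *Txnrd1* fell by 0.55 in control (SE 0.035, limma adjusted p = 7.11e-05) and by 0.87 in B-CKO cells (SE 0.051, limma adjusted p = 3.27e-05), so that *Txn1* and its reductase moved in opposite directions over the second day.

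*Prdx1* (gene ID 18477, chromosome 4, 116685599 to 116700000), a cytosolic peroxiredoxin that reduces hydrogen peroxide with electrons from thioredoxin, had the highest mean of the 10 at 0 h and 24 h. Control libraries held 60.54, 51.63 and 59.74 FPKM at 0 h, 372.81, 370.85 and 347.47 FPKM at 24 h, and 304.97, 272.27 and 291.98 FPKM at 48 h. B-CKO libraries held 65.72, 56.98 and 58.06 FPKM at 0 h, 395.42, 409.51 and 401.78 FPKM at 24 h, and 305.13, 282.96 and 280.43 FPKM at 48 h. At 24 h all B-CKO libraries were above all control libraries, and at 48 h the genotypes overlapped again. The rise at 24 h was 2.65 in control (SE 0.076, limma adjusted p = 5.65e-06) and 2.72 in B-CKO cells (SE 0.066, limma adjusted p = 2.24e-06). *Prdx1* then fell by 0.33 in control (SE 0.053, limma adjusted p = 0.00249) and by 0.47 in B-CKO cells (SE 0.045, limma adjusted p = 0.000204).

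*Prdx2* (gene ID 21672, chromosome 8, 84969622 to 84974811), another cytosolic peroxiredoxin that is abundant in red cells, rose at both steps. It ranged from 28.38 to 39.92 FPKM at 0 h, from 78.32 to 84.53 FPKM at 24 h and from 96.17 to 114.38 FPKM at 48 h over the libraries of both genotypes, and the times did not overlap. The first step was 1.23 in both genotypes (SE 0.086 in control and 0.12 in B-CKO cells), with limma adjusted p = 6.00e-05 in control and 0.00019 in B-CKO cells, and the second was 0.38 and 0.39, with limma adjusted p = 0.000142 and 0.0031. The summed erythroid markers were at 12.1 to 71.6 FPKM at 0 h, 7.71 to 12.9 FPKM at 24 h and 9.78 to 16.6 FPKM at 48 h over both genotypes. Their members differed at 24 h in control cells, where *Hba-a1* fell by 2.47 (limma adjusted p = 0.00398) and *Hbb-bt*, the highest of them in culture, rose by 1.16 (limma adjusted p = 0.00251). The part of red cell RNA in the level of *Prdx2* was not tested.

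*Prdx4* (gene ID 53381, chromosome X, 155323918 to 155342272), the peroxiredoxin of the endoplasmic reticulum, had the largest rise of the 10 genes between 24 h and 48 h. Control libraries were at 11.38, 8.99 and 13.96 FPKM at 0 h, 30.14, 33.21 and 32.70 FPKM at 24 h, and 64.32, 50.30 and 63.21 FPKM at 48 h. B-CKO libraries were at 11.11, 7.82 and 14.76 FPKM at 0 h, 34.55, 36.47 and 35.17 FPKM at 24 h, and 66.77, 53.47 and 62.38 FPKM at 48 h. Replicate 2 was lowest in both genotypes at 0 h and at 48 h and highest in both at 24 h. The step to 24 h was 1.43 in control (SE 0.15, limma adjusted p = 0.000319) and 1.61 in B-CKO cells (SE 0.20, limma adjusted p = 0.000559), and the step to 48 h was 0.86 (SE 0.096, limma adjusted p = 0.000518) and 0.76 (SE 0.078, limma adjusted p = 0.000301). The summed level of 6 plasma cell markers, among them *Xbp1*, *Jchain* and *Mzb1*, was 442 to 613 FPKM at 0 h, 404 to 450 FPKM at 24 h and 636 to 944 FPKM at 48 h over both genotypes. Over the first day 3 of the 6 were called higher and 3 lower in each genotype while *Prdx4* rose, and over the second day 5 were called higher in control cells, against 4 higher and 1 lower in B-CKO cells. By library the sum was lowest in replicate 2 of both genotypes at 48 h, as was *Prdx4*, but lowest in replicate 1 of both at 0 h, and at 24 h it was lowest in control replicate 2, where *Prdx4* was highest, and in B-CKO replicate 1, where *Prdx4* was lowest. The part of antibody-secreting cells in the rise of *Prdx4* was not tested.

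*Srxn1* (gene ID 76650, chromosome 2, 152105524 to 152111376), which repairs overoxidised peroxiredoxins, was at or near 0 in every library. Control libraries were listed at 0.04, 0 and 0 FPKM at 0 h, at 0.06, 0.21 and 0.12 FPKM at 24 h, and at 0.06, 0.02 and 0.04 FPKM at 48 h. B-CKO libraries were listed at 0, 0 and 0.02 FPKM at 0 h, at 0.06, 0.08 and 0.15 FPKM at 24 h, and at 0.02, 0.10 and 0.02 FPKM at 48 h. The 24 h libraries lay above the 0 h libraries in both genotypes. *Srxn1* was called higher at 24 h (limma adjusted p = 0.0357 in control and 0.0177 in B-CKO cells), and the relative depth at 0 h was lower than at 24 h. The call was lost with group weights in both genotypes (limma adjusted p = 0.203 in control and 0.122 in B-CKO cells), with the replicate block in control cells (limma adjusted p = 0.0626), without replicate 2 or 3 of 0 h or of 24 h in control cells (limma adjusted p from 0.0583 to 0.106), and without replicate 1 or 2 of 0 h in B-CKO cells (limma adjusted p = 0.0501 and 0.0573). No fold is given at this level, and a filter at a mean of 1 FPKM leaves the gene out. *Srxn1* mRNA was therefore far below that of the listed peroxiredoxins, of which *Prdx4* was the lowest at 30.14 FPKM or more in each 24 h library.

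*Gclc* (gene ID 14629, chromosome 9, 77754535 to 77794489) and *Gclm* (gene ID 14630, chromosome 3, 122245487 to 122267215) encode the catalytic and the modifier subunit of glutamate-cysteine ligase and differed in their course. *Gclc* was at 15.60, 18.01 and 20.46 FPKM at 0 h, at 19.89, 21.59 and 21.29 FPKM at 24 h and at 13.83, 14.63 and 12.79 FPKM at 48 h in control libraries. In B-CKO libraries it was at 16.33, 21.28 and 16.84 FPKM, then at 20.91, 20.46 and 19.43 FPKM, and then at 12.39, 13.42 and 11.03 FPKM. The 0 h and 24 h libraries overlapped in both genotypes, and all 48 h libraries lay below both. The step to 24 h was 0.21 in control (SE 0.10, limma adjusted p = 0.134) and 0.16 in B-CKO cells (SE 0.11, limma adjusted p = 0.248). It was called higher without control replicate 3 of 0 h (0.30, limma adjusted p = 0.0239) and without B-CKO replicate 2 of 0 h (0.27, limma adjusted p = 0.0131). Over the second day *Gclc* fell by 0.57 in control (SE 0.058, limma adjusted p = 0.000356) and by 0.68 in B-CKO cells (SE 0.072, limma adjusted p = 0.000336). At 48 h it was 0.36 below its 0 h level in control (SE 0.11, limma adjusted p = 0.0330), a call lost under several of the alternatives given at the end, and 0.52 below it in B-CKO cells (SE 0.13, limma adjusted p = 0.0107).

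*Gclm* was low at 0 h, with 5.56, 4.37 and 3.68 FPKM in the control libraries and 5.47, 5.14 and 4.79 FPKM in the B-CKO libraries. By 24 h the control libraries held 18.89, 20.73 and 21.01 FPKM and the B-CKO libraries 20.84, 21.08 and 20.15 FPKM. The control libraries of 48 h held 13.23, 12.57 and 14.10 FPKM and the B-CKO libraries 12.54, 11.82 and 12.13 FPKM. The modifier subunit thus moved from well below *Gclc* at 0 h to a range that overlapped it at 24 h in FPKM, a measure per transcript length. The rise at 24 h was 1.95 in control (SE 0.14, limma adjusted p = 6.08e-05) and 1.82 in B-CKO cells (SE 0.074, limma adjusted p = 5.85e-06). *Gclm* then fell by 0.57 in control (SE 0.059, limma adjusted p = 0.000391) and by 0.72 in B-CKO cells (SE 0.042, limma adjusted p = 3.27e-05).

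*Gsr* (gene ID 14782, chromosome 8, 33653238 to 33698162), the glutathione reductase, had the largest ratio at 24 h from a low start. Control libraries were at 1.26, 1.1 and 0.95 FPKM at 0 h, 9.23, 10.63 and 9.45 FPKM at 24 h, and 5.52, 5.59 and 5.89 FPKM at 48 h. B-CKO libraries were at 1.00, 0.79 and 0.83 FPKM at 0 h, 10.17, 9.88 and 8.84 FPKM at 24 h, and 4.45, 4.75 and 4.25 FPKM at 48 h. The 3 times did not overlap in either genotype, and at 48 h the B-CKO libraries lay below the control libraries. The rise at 24 h was 2.36 in control (SE 0.11, limma adjusted p = 1.27e-05) and 2.50 in B-CKO cells (SE 0.099, limma adjusted p = 5.55e-06), which on this scale understates the ratio of means of 8.85 and 11.03 because the start is near 1 FPKM. *Gsr* then fell by 0.69 in control (SE 0.066, limma adjusted p = 0.000283) and by 0.95 in B-CKO cells (SE 0.074, limma adjusted p = 8.94e-05).

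*Nfe2l2* (gene ID 18024, chromosome 2, 75675513 to 75704663) stayed between 12.42 and 18.14 FPKM in all 18 libraries. Control libraries were at 16.49, 14.65 and 14.93 FPKM at 0 h, 14.62, 13.88 and 15.25 FPKM at 24 h, and 12.95, 14.26 and 13.68 FPKM at 48 h. B-CKO libraries were at 18.14, 14.30 and 16.28 FPKM at 0 h, 13.60, 13.69 and 14.63 FPKM at 24 h, and 14.09, 12.96 and 12.42 FPKM at 48 h. The 48 h libraries lay below the 0 h libraries in both genotypes, and neighbouring times overlapped. The step to 24 h was -0.069 in control (SE 0.076, limma adjusted p = 0.478) and -0.20 in B-CKO cells (SE 0.096, limma adjusted p = 0.122). From 0 h to 48 h it was -0.16 in control (SE 0.082, limma adjusted p = 0.142) and -0.28 in B-CKO cells (SE 0.10, limma adjusted p = 0.0584). Under some alternatives *Nfe2l2* was called lower than at 0 h. Rescaling to TPM called it at 24 h and at 48 h in both genotypes, with limma adjusted p between 0.00621 and 0.0455. In B-CKO cells it was also called in the fit of all 18 libraries (limma adjusted p = 0.0388 at 24 h and 0.00559 at 48 h), without replicate 2 of 0 h (limma adjusted p = 0.0269 and 0.0240), and at 48 h with the filter at 1 FPKM (limma adjusted p = 0.0433).

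Over the second day the 10 genes divided. Between 24 h and 48 h, 3 were called higher (*Txn1*, *Prdx2* and *Prdx4*) and 5 lower (*Txnrd1*, *Prdx1*, *Gclc*, *Gclm* and *Gsr*), and the same genes moved the same way in both genotypes. Of all genes tested, 20.1% were called higher and 24.8% lower in control cells, and 21.7% and 24% in B-CKO cells. Both reductases were on the falling side, with *Txnrd1* at a ratio of 0.678 and *Gsr* at 0.580 in control cells. From 0 h to 48 h, 7 of the 10 were higher and *Gclc* alone was lower in each genotype, while 26.5% of all genes were called higher and 30.3% lower in control cells, and 27.0% and 30.7% in B-CKO cells. At 48 h *Txn1* was at 8.04 times its 0 h mean in control cells, *Prdx4* at 5.18 times, *Gsr* at 5.14 times and *Prdx1* at 5.06 times. The median difference of the 10 genes between 24 h and 48 h was -0.22 in control cells and that of all genes was -0.0047.

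**Figure D2:**
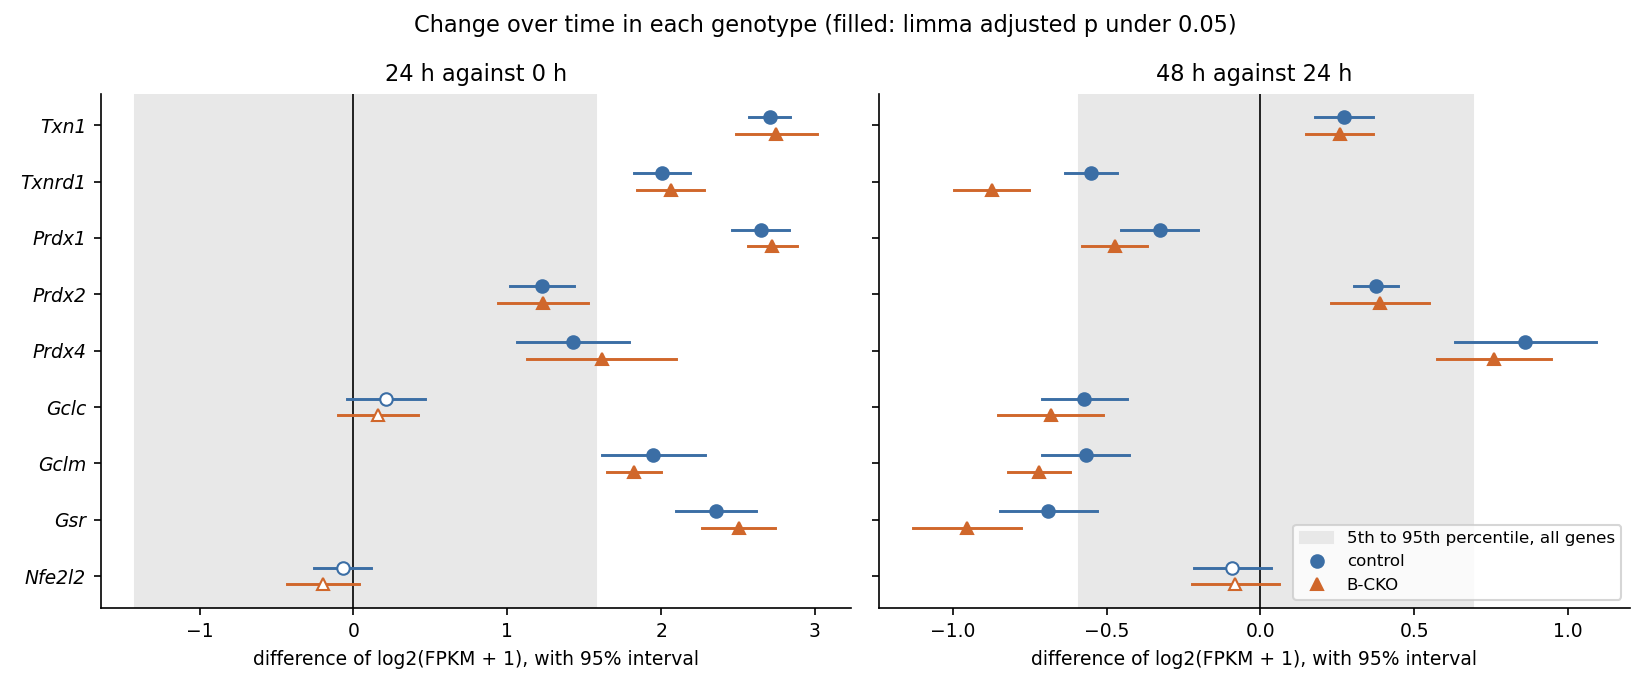
Differences of log2(FPKM + 1) (x axis) for 9 genes (y axis, *Srxn1* left out) in control (circles) and B-CKO cells (triangles), with 95% confidence intervals from limma, filled symbols for calls and a grey band for the 5th to 95th percentile of all genes, for 24 h against 0 h and for 48 h against 24 h. At 24 h the points of *Gclc* and *Nfe2l2* lie near 0 and *Txn1* lies farthest right, at 2.70 in control and 2.75 in B-CKO cells, and at 48 h *Txn1*, *Prdx2* and *Prdx4* lie right of 0 while *Txnrd1*, *Prdx1*, *Gclc*, *Gclm* and *Gsr* lie left of it.

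The order of the genes by FPKM, which is per length, also changed. In control cells at 0 h *Prdx1* (57.3 FPKM), *Txn1* (42.5 FPKM) and *Prdx2* (33.6 FPKM) led and did not overlap. *Txnrd1*, *Gclc* and *Nfe2l2* followed between 15.4 and 18.4 FPKM, each overlapping the next, and then came *Prdx4*, *Gclm*, *Gsr* and *Srxn1*, each below the one before. At 24 h *Prdx1* (364 FPKM) and *Txn1* (283 FPKM) stood above *Prdx2* and *Txnrd1*, which overlapped each other, and *Gclc* and *Gclm* overlapped at about 20 FPKM. At 48 h *Txn1* (341 FPKM) had passed *Prdx1* (290 FPKM), and *Prdx4* had reached the level of *Txnrd1*, with overlapping libraries at means of 59.3 and 52.0 FPKM. The summed FPKM of the 10 genes were 202 ± 10.2 (SD, n = 3) at 0 h, 900 ± 19.2 at 24 h and 893 ± 26.9 at 48 h in control cells. *Txn1* and *Prdx1* together made up 48.4% to 50.6% of this sum at 0 h and 70.7% to 72.3% at 24 h.

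To describe which genes followed a similar course, the log2 values of each of the 9 genes above 1 FPKM were correlated over the 18 libraries with those of the 9997 genes whose mean was at least 1 FPKM. The libraries share 3 times, so that these values mostly reflect time and are descriptions. *Txn1* was most like *Tkt*, the transketolase of the pentose phosphate pathway (r = 0.998), and *Prdx1* was most like *Cdk4*, a kinase of cell cycle entry (r = 0.998). *Gsr* was most like *Txnrd1* (r = 0.995), so that the reductases of both systems shared a course. *Gclm* was most like *Srm*, the spermidine synthase (r = 0.995), *Txnrd1* like *Eif3b* (r = 0.996), *Prdx2* like *Mvk*, a kinase of sterol synthesis (r = 0.994), and *Ssr1* of the endoplasmic reticulum was among the 3 genes most like *Prdx4* (r = 0.986). For these 7 genes, between 1116 and 2214 of the 9997 genes had r over 0.9, against 45 for *Gclc* (most like *Ccnyl1*, r = 0.976) and 2 for *Nfe2l2* (most like *Washc1*, r = 0.908).

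The comparison of B-CKO with control cells asks whether *Zbtb24* loss in B cells altered these genes. At 0 h none of the 10 was called by limma, and none reached an unadjusted p under 0.05 without a block. Of all genes 0% were called at 0 h, with 313 of 15641 at an unadjusted p under 0.05, and the groups of none of the 10 failed to overlap, against 3.87% of all genes. The differences at 0 h lay between -0.17 (*Gsr*) and 0.16 (*Gclm*), all with limma adjusted p = 1. The widest 95% confidence interval was that of *Prdx4*, from -0.65 to 0.56. With the replicate block, since the numbers pair the libraries at 0 h, the interval of *Prdx4* was -0.25 to 0.15. *Gsr* was lower in the B-CKO library of all 3 numbers at 0 h, and the block gave an unadjusted p under 0.05 for it (difference -0.17, SE 0.061, limma adjusted p = 0.867). Same-numbered libraries deviated together at 0 h, and replicate 1 was highest of its group in both genotypes in *Txnrd1*, *Prdx1*, *Prdx2*, *Gclm*, *Gsr* and *Nfe2l2*.

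At 24 h none of the 10 genes was called by limma, against 0.0993% of all genes, and 2 reached an unadjusted p under 0.05, against 2463 of 15104 genes. These were *Prdx1* and *Prdx4*, whose libraries did not overlap between genotypes, as for 20.1% of all genes. *Prdx1* was 0.15 higher in B-CKO cells (SE 0.036, limma adjusted p = 0.135, 95% confidence interval 0.060 to 0.23), a ratio of means of 1.11. *Prdx4* was 0.14 higher (SE 0.043, limma adjusted p = 0.182). The other 8 genes differed by at most 0.072 (*Txnrd1*) in either direction.

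At 48 h none of the 10 was called by limma, against 0.0460% of all genes, and 2 reached an unadjusted p under 0.05, against 1172 of 15210 genes. *Txnrd1* and *Gsr*, the reductases of the thioredoxin and glutathione systems, were both lower in each B-CKO library than in each control library, and so was *Gclm*, where 11.1% of all genes did not overlap. *Txnrd1* had a ratio of mean FPKM of 0.839 in B-CKO against control cells (log2 difference -0.25, SE 0.053, limma adjusted p = 0.277, 95% confidence interval -0.38 to -0.12). The ratio was 0.791 for *Gsr* (log2 difference -0.28, SE 0.072, limma adjusted p = 0.380) and 0.915 for *Gclm* (log2 difference -0.12, SE 0.058, limma adjusted p = 0.714). *Txn1*, the substrate of *Txnrd1*, differed by 0.022 (95% confidence interval -0.096 to 0.14). An alternative chosen after seeing the data entered replicate numbers as blocks and left out genes averaging under 1 FPKM. With it limma called *Prdx1* at 24 h (adjusted p = 0.0455) and *Txnrd1* at 48 h (adjusted p = 0.0467). The same fits called 704 genes in all at 24 h and 116 at 48 h. The block alone called none of the 10. The numbers paired libraries only weakly at 24 h and were not shown to pair them at 48 h.

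**Figure D3:**
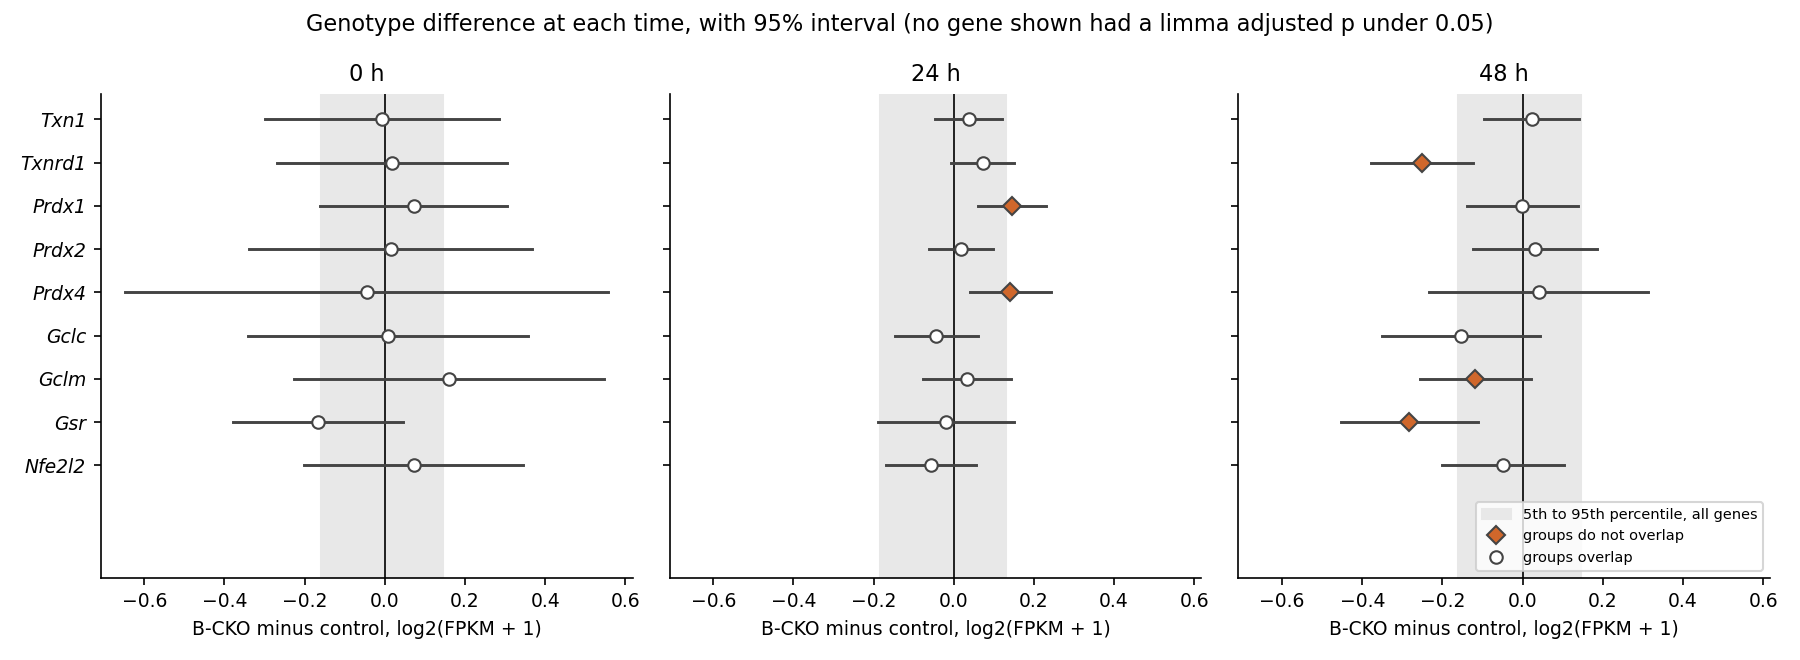
Differences of log2(FPKM + 1) between B-CKO and control cells (x axis) for 9 genes (y axis, *Srxn1* left out) at 0 h, 24 h and 48 h, with 95% confidence intervals from limma, diamonds where the libraries of the genotypes do not overlap, circles where they do, and a grey band for the 5th to 95th percentile of all genes. The interval of *Prdx4* at 0 h, from -0.65 to 0.56, is the widest, and those of *Prdx1* and *Prdx4* at 24 h lie above 0 while those of *Txnrd1* and *Gsr* at 48 h lie below it, none past an adjusted p of 0.05.

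The difference between the genotypes' changes was tested as an interaction over 12 libraries. From 0 h to 24 h none of the 10 genes was called by limma, none reached an unadjusted p under 0.05, and 0% of all genes were called, with 467 of 16182 at an unadjusted p under 0.05. From 24 h to 48 h none of the 10 and 0% of all genes were called, with 1158 of 15844 at an unadjusted p under 0.05, 2 of them *Txnrd1* and *Gsr*. *Txnrd1* fell further in B-CKO than in control cells by 0.32 (SE 0.064, limma adjusted p = 0.399), and *Gsr* by 0.26 (SE 0.096, limma adjusted p = 0.614). In B-CKO cells the ratio of 48 h to 24 h was 0.541 for *Txnrd1* and 0.466 for *Gsr*, against 0.678 and 0.580 in control cells.

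Beyond the 10 genes, the rest of the redox network was described by lists in control cells at 24 h, to be read against the 26.7% of all genes called higher and 30.7% called lower. Of 17 other genes of the thioredoxin system, 8 were called higher and 4 lower (median 0.32). The mitochondrial *Prdx3* and *Txn2* rose with *Txn1*, by 1.90 and 1.33, and *Txnip*, which encodes an inhibitor of thioredoxin, fell by 3.08 (SE 0.11, limma adjusted p = 7.40e-06), from 343 ± 49.3 to 39.5 ± 2.45 FPKM (SD, n = 3). *Txn1* and its inhibitor thus moved in opposite directions by the first day. From 24 h to 48 h both were called higher in control cells, *Txnip* by 0.91 and *Txn1* by 0.27. *Sesn1* and *Sesn3*, of the sestrin family, fell by 2.23 and 1.34.

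Of 29 tested genes of the glutathione system other than *Gclc*, *Gclm* and *Gsr*, 10 were called higher and 6 lower (median 0.082). The glutaredoxins *Glrx5* and *Glrx3* rose by 1.34 and 1.32 while *Mgst2*, a microsomal glutathione transferase, fell by 1.18. *Gstp1* rose by 1.33, although it shares sequence with *Gstp2*, between which reads may be split. Of 14 genes of NADPH supply, which both reductases need, 12 were called higher and none lower (median 0.81), led by *Mthfd2* (3.20) and *Mthfd1* (2.39) of folate metabolism and *Tkt* (1.66). Of 9 genes of selenocysteine insertion, which *Txnrd1* needs for its selenocysteine, 6 were called higher and 1 lower (median 0.65), with *Sephs2*, a selenophosphate synthetase, higher by 1.74.

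Among 22 regulators, partners and targets of NRF2, 6 were called higher and 11 lower (median -0.27). This list pools genes of different roles, inhibitors among them, so that its counts and median are no measure of NRF2 activity. *Nqo1*, a classical target, rose from 0.0667 to 1.64 FPKM, while *Fth1*, the ferritin heavy chain, fell by 0.92, and the small MAF partners *Maff* and *Mafk* fell by 4.37 and 2.28. *Maff* and *Mafk* fell along with the immediate early genes, of which 15 of 16 were called lower at 24 h, and the part of that 0 h level in the list was not tested. Of 4 tested genes in the list of superoxide dismutases and catalase, 3 were called higher, led by *Sod1* (1.12), and *Cat* fell by 0.85. The 3 included *Ccs* (0.41), which encodes neither of these enzymes. Of 6 genes of the phagocyte NADPH oxidase, which makes superoxide, none was called higher and 3 were called lower, among which *Ncf4* fell by 0.35. In the comparisons of genotype, limma called no gene of these 7 lists at any time.

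**Figure D4:**
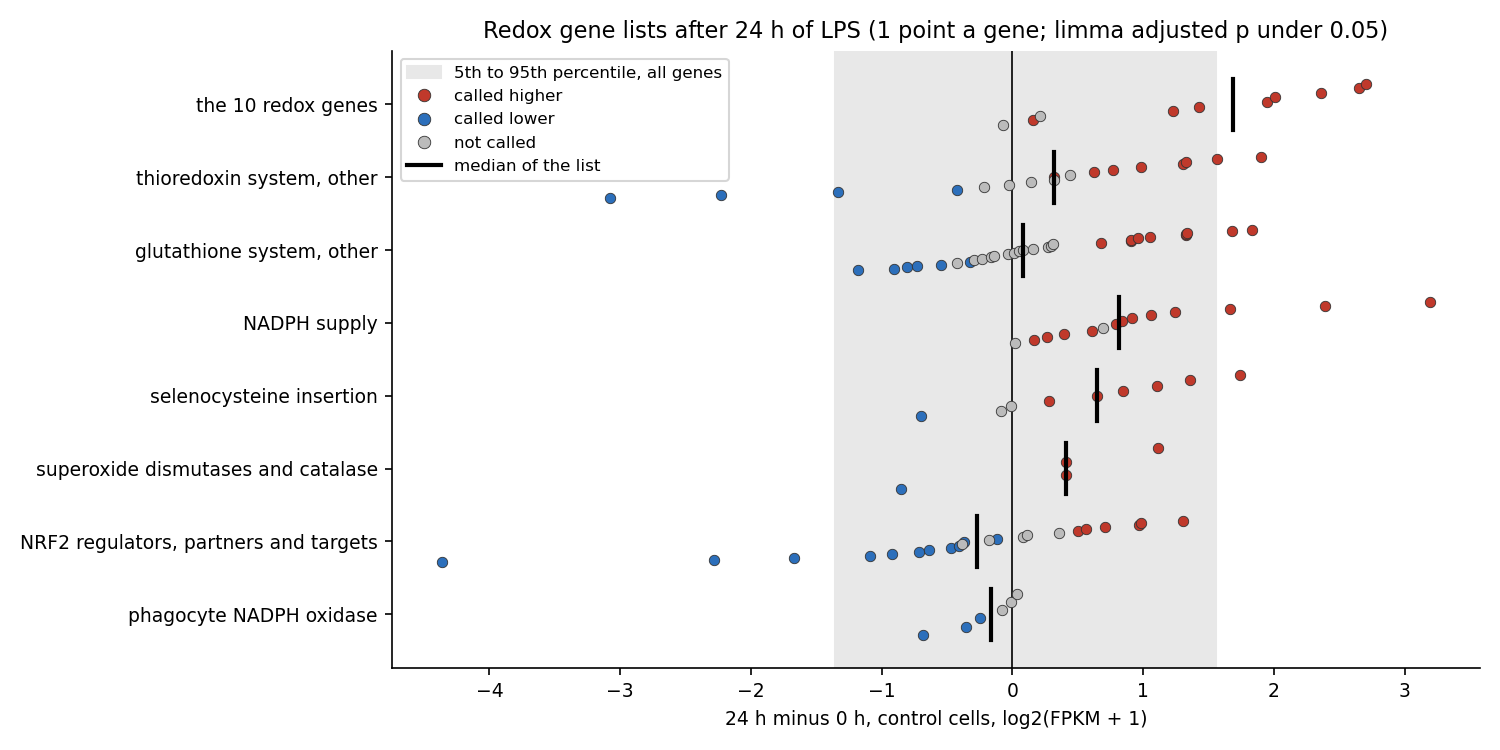
Differences of log2(FPKM + 1) at 24 h against 0 h in control cells (x axis) for the genes of each list (y axis, 1 point a gene, coloured by limma call), with the list's median as a black bar and a grey band for the 5th to 95th percentile of all genes. The 10 genes have a median of 1.69, against 0.81 for NADPH supply, 0.65 for selenocysteine insertion and -0.27 for NRF2 regulators, partners and targets. The NRF2 list pools genes of different roles.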

How the data were processed

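RNA-seq of 18 libraries was deposited as 1 table. Per the methods, splenic B cells were sorted or enriched with a pan B cell kit, without saying which cells went into RNA-seq. The authors mapped the reads to mm10 and gave FPKM. The methods name bowtie2, Cufflinks and RSEM, and the submitters' processing notes also list BWA, with no versions. The methods and the notes each name the authors' program for differential expression as well, also without a version. The labels name an MGI2000 instrument and the methods others. The deposited table was used as given; it holds no counts, so that a count test was not run and depth is known only relatively. Values are relative to all RNA of a library, so that a large change in total RNA or in a few genes shifts every other gene. Values were taken as log2(FPKM + 1), and genes above 0 in at least 1 library of a fit were tested with limma 3.58.1 (empirical Bayes with a trend) in R 4.3.3, with Benjamini-Hochberg adjustment over all genes tested and a threshold of 0.05. Comparisons of time within a genotype and of genotype within a time used 6 libraries each, and interactions used 12. No 2 libraries were identical, and replicates correlated at 0.986 to 0.999.

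The check of pairing took the deviations of each library from its group mean. Same-numbered control and B-CKO libraries correlated at 0.468 to 0.854 at 0 h, 0.091 to 0.200 at 24 h and -0.037 to 0.230 at 48 h. Libraries of other numbers correlated at -0.738 to 0.058 at 0 h, -0.119 to 0.0085 at 24 h and -0.341 to 0.171 at 48 h. Among the comparisons of genotype, the numbers thus pair the libraries clearly at 0 h and only weakly at 24 h. At 48 h the values of same and other numbers overlapped. Within B-CKO cells, 24 h and 48 h correlated at 0.117 to 0.183. That pairing comes from the data, since no label explains the numbers.

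The 10 genes and all lists were chosen with earlier results of these data known. In each list, at most 3 called genes with the smallest adjusted p in each direction at 24 h in control cells could be named, and *Zbtb24* was named as the check of the labels. Some items are not reported here. Genes most like a member were the 3 with the highest Pearson correlation. Promoter sequences and gene positions are from RefSeq on GRCm38.p6, the assembly behind mm10. The fit was tested on simulated data. Alternatives were a pseudocount of 0.1, a filter at a mean of 1 FPKM, rescaling to TPM or by the median ratio, the replicate number as a block, a fit of all 18 libraries, weights per group, and leaving out each library.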

Additional observations from a re-analysis of the deposited data

How the results depend on the processing

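The calls over time of *Txn1*, *Txnrd1*, *Prdx1*, *Prdx2*, *Prdx4*, *Gclm* and *Gsr* held under each alternative. Of the alternatives to single values over time for the 9 genes other than *Srxn1*, 684 kept direction and side of the threshold, 11 passed it and 7 no longer did, and none changed sign. The number of the 10 genes called at 24 h against 0 h lay between 7 and 9 in both genotypes, where between 7528 and 9810 of all genes were called in control cells and between 7829 and 9882 in B-CKO cells, and at 48 h against 24 h between 8 and 9 in control cells, where between 4650 and 6889 of all genes were called. The limma call of *Gclc* at 48 h against 0 h in control cells was lost under the median ratio (adjusted p = 0.108), the replicate block (0.0673) and without replicate 2 of 0 h (0.0851), replicate 3 of 0 h (0.0581) or replicates 1, 2 or 3 of 48 h (0.0878, 0.0592 and 0.113). The call of *Srxn1* at 24 h was lost under 6 alternatives in control and 3 in B-CKO cells, group weights in both and the replicate block in control cells among them, and a call at 48 h against 24 h appeared in control cells without replicate 1 of 24 h (limma adjusted p = 0.0251). A pseudocount of 0.1 moved the median of all genes at 24 h to -0.11 in control cells.

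With the replicate block alone, 7, 8 and 7 of the 10 genes were called in control cells at 24 h against 0 h, 48 h against 24 h and 48 h against 0 h, 8 in each of the 3 comparisons of B-CKO cells, and 0 by genotype or interaction; of all genes, 8512, 6338 and 8402 were called in control cells and 8911, 6524 and 8719 in B-CKO cells. With the replicate block and the filter at 1 FPKM together, 1 gene was called by genotype at 24 h (*Prdx1*) and 1 at 48 h (*Txnrd1*), where 704 and 116 of all genes were called. The filter alone called 388 of all genes by genotype at 24 h and 29 at 48 h, against 15 and 7 without it. A pseudocount of 0.1 called 46 at 24 h.

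Small differences between genotypes changed sign. Under TPM the log2 difference was -0.0043 for *Gclc* at 0 h, -0.0017 for *Txn1* at 48 h and -0.0016 for *Nfe2l2* in the interaction from 24 h to 48 h. Under the median ratio it was 0.014 for *Prdx1* at 48 h. When single libraries were left out, the difference at 0 h ranged from -0.145 to 0.0959 for *Txn1*, from -0.0792 to 0.0845 for *Txnrd1*, from -0.000134 to 0.128 for *Prdx1*, from -0.101 to 0.138 for *Prdx2*, from -0.248 to 0.170 for *Prdx4*, from -0.106 to 0.146 for *Gclc* and from -0.00683 to 0.155 for *Nfe2l2*. At 24 h it ranged from -0.0247 to 0.0405 for *Prdx2*, from -0.0172 to 0.0790 for *Gclm* and from -0.0915 to 0.0379 for *Gsr*. At 48 h it ranged from -0.00406 to 0.0627 for *Txn1*, from -0.0446 to 0.0370 for *Prdx1*, from -0.0393 to 0.120 for *Prdx2* and from -0.0718 to 0.129 for *Prdx4*. In the interaction from 0 h to 24 h it ranged from -0.0580 to 0.161 for *Txn1*, from -0.0125 to 0.151 for *Txnrd1*, from -0.120 to 0.119 for *Prdx2*, from -0.0289 to 0.390 for *Prdx4* and from -0.143 to 0.0620 for *Gclc*. From 24 h to 48 h it ranged from -0.0484 to 0.0248 for *Txn1*, from -0.0406 to 0.0833 for *Prdx2* and from -0.0378 to 0.0469 for *Nfe2l2*. The cause of these changes was not tested. Depth is known only relatively, so that no counting error could be given for *Srxn1*.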
